A study of Mus musculus with 18 samples.

Results

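The comparison described here set spleen regulatory T cells (TR) sorted as Id3- effector TR (Id3- eTR) against those sorted as Id3+ central TR (Id3+ cTR). It used 6 of the 18 libraries of the series, 3 of each population, chosen by population and tissue name, and every gene of the count table. Both populations came from the spleens of the same 3 littermate mice (84, 86 and 87). The animals were C57BL/6, and every group shares 1 genotype, with reporters for Id3 (GFP) and for Foxp3 (mRFP). Neither age nor treatment is given. CD4+ cells were enriched with magnetic beads and 500 viable cells per library were sorted by surface markers, among them CD4 and CD44, and by the reporters. Id3- eTR lacked Id3-GFP, and their label names no CD44 gate. Id3+ cTR were CD44-low. The 3 spleen libraries of Id3+ eTR, which were CD44-high, are given as values beside them.

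TR are CD4 T cells that hold back immune responses and depend on the transcription factor FOXP3. Central TR resemble resting T cells and circulate through lymphoid organs with the help of CCR7. Effector TR have been activated, suppress more strongly and include the precursors of TR that settle in non-lymphoid tissues. ID3 and ID2 are inhibitor proteins that bind E proteins such as E2A, HEB and E2-2 and keep them from binding the E-box motif CANNTG in DNA. The series title names changing Id3 expression as the mark of successive steps towards tissue-resident TR, and this comparison spans the ends of that path in spleen.

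Values are given for mice 84, 86 and 87 in that order, as CPM (read counts scaled to a common library size) on TMM-scaled library totals. Library totals were 2759039, 2164402 and 2853467 counts in Id3- eTR and 1600782, 2498377 and 1684461 in Id3+ cTR. Cells of mice 84 and 87 thus gave the shallowest Id3+ cTR libraries. Id3- eTR libraries held 14559 to 14751 detected genes and Id3+ cTR libraries 13701 to 14164. Mitochondrial genes took 0.376% to 0.474% of counts in Id3- eTR and 0.426% to 0.652% in Id3+ cTR. Replicates within a group were separate mice, and the same mice gave every group. The main fit had no term for mouse and took its spread from replicate libraries of all groups, lymph node included. Its p-values thus rest on the spread between libraries within groups, not on paired differences between animals.

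The genes used in the sort followed the gates and are a description only. Id3 had 45.3, 70.2 and 60.1 CPM in Id3- eTR, 204, 261 and 277 CPM in Id3+ eTR and 306, 254 and 274 CPM in Id3+ cTR. Cd44, which encodes the hyaluronan receptor that rises on activated T cells, averaged 212 ± 27.6 CPM in Id3- eTR and 59.6 ± 4.36 CPM in Id3+ cTR (SD, n = 3 each). Foxp3 had 296, 254 and 261 CPM in Id3- eTR and 308, 263 and 293 CPM in Id3+ cTR, and these ranges overlapped. Cd4 averaged 350 ± 12.3 CPM in Id3- eTR and 297 ± 42.0 CPM in Id3+ cTR. All 9 TR markers listed and all 8 T cell markers listed had counts in both populations. Foxp3 and Cd4 among them were used in the sort, and markers of other cells had counts too, as given below. Of the TR markers, Ikzf2, Ctla4 and Capg were called higher in Id3- eTR and Gpr83, Lrrc32 and Il2ra were called lower. Summed over the list, TR markers reached 3730 to 4030 CPM in Id3- eTR and 3370 to 4090 CPM in Id3+ cTR.

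Across all genes, 892 of 12445 tested genes (7.17%) were higher in Id3- eTR and 634 (5.09%) were lower, 12.3% in all (edgeR quasi-likelihood test, Benjamini-Hochberg adjusted p under 0.05). The higher genes moved further, and they lay at lower levels. Their median was 68.1 CPM in Id3- eTR and 17.2 CPM in Id3+ cTR, against 93.1 and 181 CPM for the lower genes. With genes at 0 counts set to their bound, 675 of the higher genes changed at least 2-fold, 431 at least 4-fold and 184 at least 16-fold. Of the lower genes, 259 changed at least 2-fold, 122 at least 4-fold and 38 at least 16-fold. The median log2 change was 1.88 for the higher genes and -0.80 for the lower ones, and 0.0023 for all genes tested. In all 91 higher genes had 0 counts in the 3 Id3+ cTR libraries together, and 24 lower genes had 0 counts in the 3 Id3- eTR libraries. Higher genes took 10% to 10.3% of the counts of Id3- eTR libraries and 4.32% to 4.34% of those of Id3+ cTR. Lower genes took 8.9% to 9.77% of the counts of Id3- eTR and 14.2% to 15.9% of those of Id3+ cTR. Without calling anything, 2038 genes (16.4%) had all 3 Id3- eTR libraries above all 3 Id3+ cTR libraries, and 1758 (14.1%) had them all below.

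**Figure D1:**
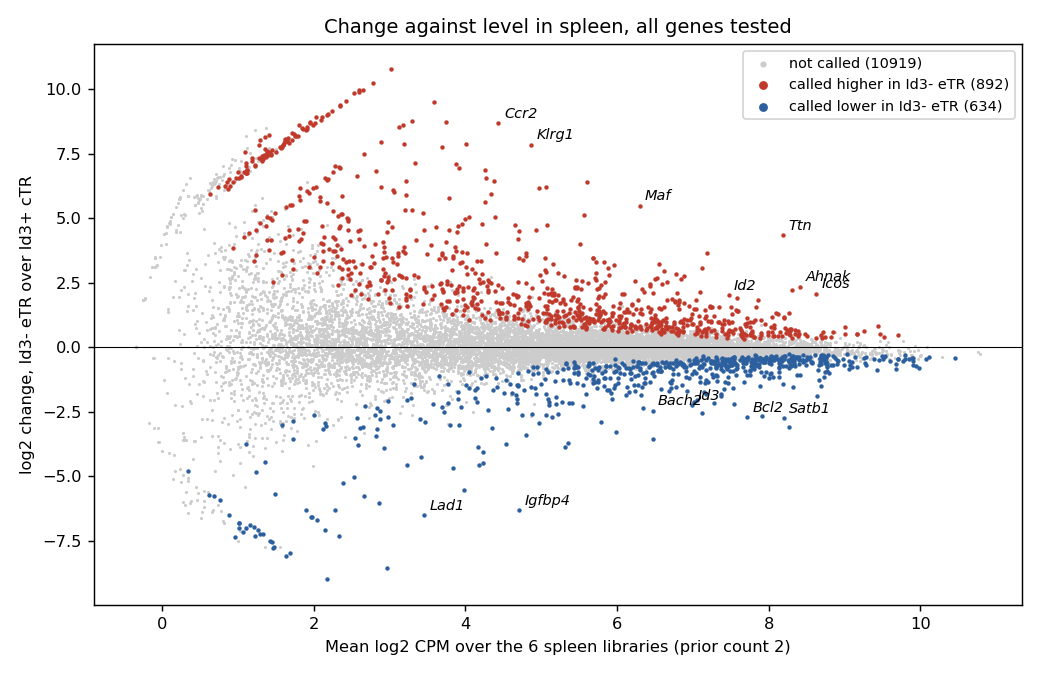
Each point is a gene tested in spleen, with its mean log2 CPM over the 6 libraries on the x axis and its log2 change (Id3- eTR over Id3+ cTR) on the y axis. The 892 genes called higher in Id3- eTR are red and the 634 called lower are blue. Red points reach larger changes, and many blue points lie close to 0 at high levels. The slanted edges at the left are genes with 0 counts in one population, whose fitted change depends on the prior count.

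The calls depended on the few libraries. In each of the 6 fits that leave out 1 spleen library, 815 genes (6.55%) were called in the same direction, 508 higher and 307 lower. Without 3 libraries that stand apart in depth or in their group, namely Id3+ cTR of mice 84 and 87 and Id3+ eTR of mouse 84, 730 genes (5.30% of those tested there) were called, 453 higher and 277 lower. That fit leaves 1 spleen library of Id3+ cTR, which is assumed to vary like the other groups, so a call kept or lost in it has no replicate of Id3+ cTR behind it. Gene groups below are given with their counts in these fits where they differ.

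Among the 6 tested genes for E and Id proteins, Id2 was higher, and the only lower one was the sort gene Id3. Id2 had 315, 394 and 361 CPM in Id3- eTR, 102, 121 and 156 CPM in Id3+ eTR and 81.9, 87.5 and 93.7 CPM in Id3+ cTR. Every Id3- eTR library lay above every Id3+ library (log2 change 2.02 ± 0.15 SE, edgeR adjusted p = 1.67e-07). The summed CPM of the listed E and Id genes ran from 503 to 605 in Id3- eTR and from 516 to 576 in Id3+ cTR. None of the 3 E protein genes passed the test. Tcf12, which encodes HEB, had 99.3, 103 and 111 CPM in Id3- eTR and 146, 142 and 97.4 CPM in Id3+ cTR (log2 change -0.30 ± 0.20 SE). Tcf3, which encodes E2A, had a log2 change of 0.32 ± 0.39 SE, and Tcf4, which encodes E2-2, had -1.10 ± 0.83 SE at under 13 CPM in every library.

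Since Id proteins act on E-box binding, the 250 bases before the first listed RefSeq start of a gene (GRCm38.p6) were searched for CANNTG, which reads the same on both strands, and for its forms CAGCTG and CACCTG (either strand). Promoters were found for 8841 of the 12445 genes. The windows shown are those of Id2 and Id3, the pair of Id genes that moved apart, of Entpd1, which was higher in Id3- eTR and encodes the ectonucleotidase CD39, and of Gpr83, a receptor gene of TR that was lower. Entpd1 and Gpr83 were chosen after their values and motifs were seen. Capitals mark CANNTG matches. The windows are chr12:25096093-25096342 (minus strand) for Id2, chr19:40612116-40612365 (plus strand) for Entpd1, chr4:136143572-136143821 (plus strand) for Id3 and chr9:14859960-14860209 (plus strand) for Gpr83.
Id2: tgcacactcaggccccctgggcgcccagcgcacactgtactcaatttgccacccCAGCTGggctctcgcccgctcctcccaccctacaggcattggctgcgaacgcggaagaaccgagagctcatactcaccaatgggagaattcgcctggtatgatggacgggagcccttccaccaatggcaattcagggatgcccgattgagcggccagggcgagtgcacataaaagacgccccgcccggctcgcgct
Entpd1: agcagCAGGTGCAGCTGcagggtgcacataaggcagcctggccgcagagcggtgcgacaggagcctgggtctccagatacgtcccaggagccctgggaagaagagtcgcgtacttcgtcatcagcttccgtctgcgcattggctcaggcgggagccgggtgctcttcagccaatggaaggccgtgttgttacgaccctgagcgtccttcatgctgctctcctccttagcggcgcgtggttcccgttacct
Id3: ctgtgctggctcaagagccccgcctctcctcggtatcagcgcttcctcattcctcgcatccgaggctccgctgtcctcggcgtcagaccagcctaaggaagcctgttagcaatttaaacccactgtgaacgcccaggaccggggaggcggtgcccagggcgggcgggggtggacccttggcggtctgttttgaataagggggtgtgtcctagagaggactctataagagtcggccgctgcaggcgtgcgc
Gpr83: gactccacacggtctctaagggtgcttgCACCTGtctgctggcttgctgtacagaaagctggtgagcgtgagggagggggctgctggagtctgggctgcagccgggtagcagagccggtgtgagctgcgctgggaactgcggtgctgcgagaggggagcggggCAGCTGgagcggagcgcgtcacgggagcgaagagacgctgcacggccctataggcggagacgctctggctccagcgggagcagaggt
The Id2 window holds 1 match, of the CAGCTG form, and the Id3 window holds 0. Entpd1 and Gpr83 hold 2 matches each, 1 of the CAGCTG and 1 of the CACCTG form, and those of Entpd1 lie end to end. Across genes, CANNTG stood in 62.3% of the windows of genes called higher, 57.2% of those called lower, 56.6% of all tested genes and 66.0% of all windows in the table. CACCTG stood in 20.4% of the windows of higher genes, 15.8% of those of lower genes, 14.8% of those of all tested genes and 17.1% of all windows. CAGCTG, which is itself a form of CANNTG, stood in 13.8%, 11.4%, 11.1% and 12.8% in the same order. These are counts of letters in a short window and show no binding.

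Regulators that keep T cells in a resting state were mostly lower in Id3- eTR. Of 15 tested, 11 were lower (Satb1, Bach2, Klf7, Tcf7, Lef1, Foxp1, Klf2, Foxo1, Klf3, Ikzf1 and Ets1), 1 was higher (Ikzf2), and the median log2 change was -1.05, against 0.0023 over all genes. Satb1, a chromatin organizer, had 110, 120 and 109 CPM in Id3- eTR, 331, 325 and 328 CPM in Id3+ eTR and 730, 686 and 869 CPM in Id3+ cTR. Bach2, a repressor that restrains effector genes, had 36.0, 38.1 and 37.9 CPM in Id3- eTR, 91.8, 123 and 118 CPM in Id3+ eTR and 194, 214 and 208 CPM in Id3+ cTR. Both formed 3 separate levels in the 3 populations, with log2 changes of -2.76 ± 0.13 SE (adjusted p = 9.06e-10) and -2.46 ± 0.18 SE (adjusted p = 9.12e-08). Tcf7, which encodes the resting and stem-like factor TCF-1, fell to 194, 204 and 166 CPM in Id3- eTR, against 590, 498 and 533 CPM in Id3+ cTR, with 588, 404 and 438 CPM in Id3+ eTR. Lef1 (log2 change -1.43 ± 0.09 SE) and Klf2 (-1.05 ± 0.15 SE), whose product switches on S1pr1, were also lower. The call of Ets1 was the weakest (log2 change -0.30, adjusted p = 0.0313). It was lost without either library of mouse 84 or of mouse 87, with adjusted p up to 0.161. Ikzf2, which encodes Helios, had 938, 869 and 1004 CPM in Id3- eTR and 636, 443 and 499 CPM in Id3+ cTR (log2 change 0.84 ± 0.14 SE, adjusted p = 0.000499).

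Regulators of effector and tissue T cells moved the other way. Of 18 tested, 12 were higher (among them Tbx21, Maf, Prdm1, Bhlhe40, Rora, Nfil3, Ahr, Hif1a, Rbpj, Batf and Gata3), 0 were lower, and the median log2 change was 2.45. Maf, a driver of Il10 transcription, had 457, 569 and 504 CPM in Id3- eTR, 111, 128 and 174 CPM in Id3+ eTR and 13.7, 9.19 and 11.7 CPM in Id3+ cTR (log2 change 5.50 ± 0.29 SE, adjusted p = 1.82e-09). Prdm1, which encodes Blimp-1, had 160, 184 and 219 CPM in Id3- eTR, 24.8, 16.7 and 25.3 CPM in Id3+ eTR and 4.55, 20.8 and 24.0 CPM in Id3+ cTR. Maf was thus graded over the 3 populations, and Prdm1 in Id3+ eTR lay within or next to the range of Id3+ cTR. Tbx21, which encodes T-bet, was higher (58.6, 75.3 and 21.9 CPM in Id3- eTR and 1.3, 0 and 1.23 CPM in Id3+ cTR). Tbx21 and Gata3, each tied to a different T helper programme in conventional T cells, were both higher. In such bulk samples more cells of a kind and more RNA per cell cannot be told apart. Gata3 changed less (log2 change 0.79 ± 0.17 SE, adjusted p = 0.00416). The call of Rbpj was lost without any single spleen library (adjusted p up to 0.105), and 11 of the 12 held in all of these fits.

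**Figure D2:**
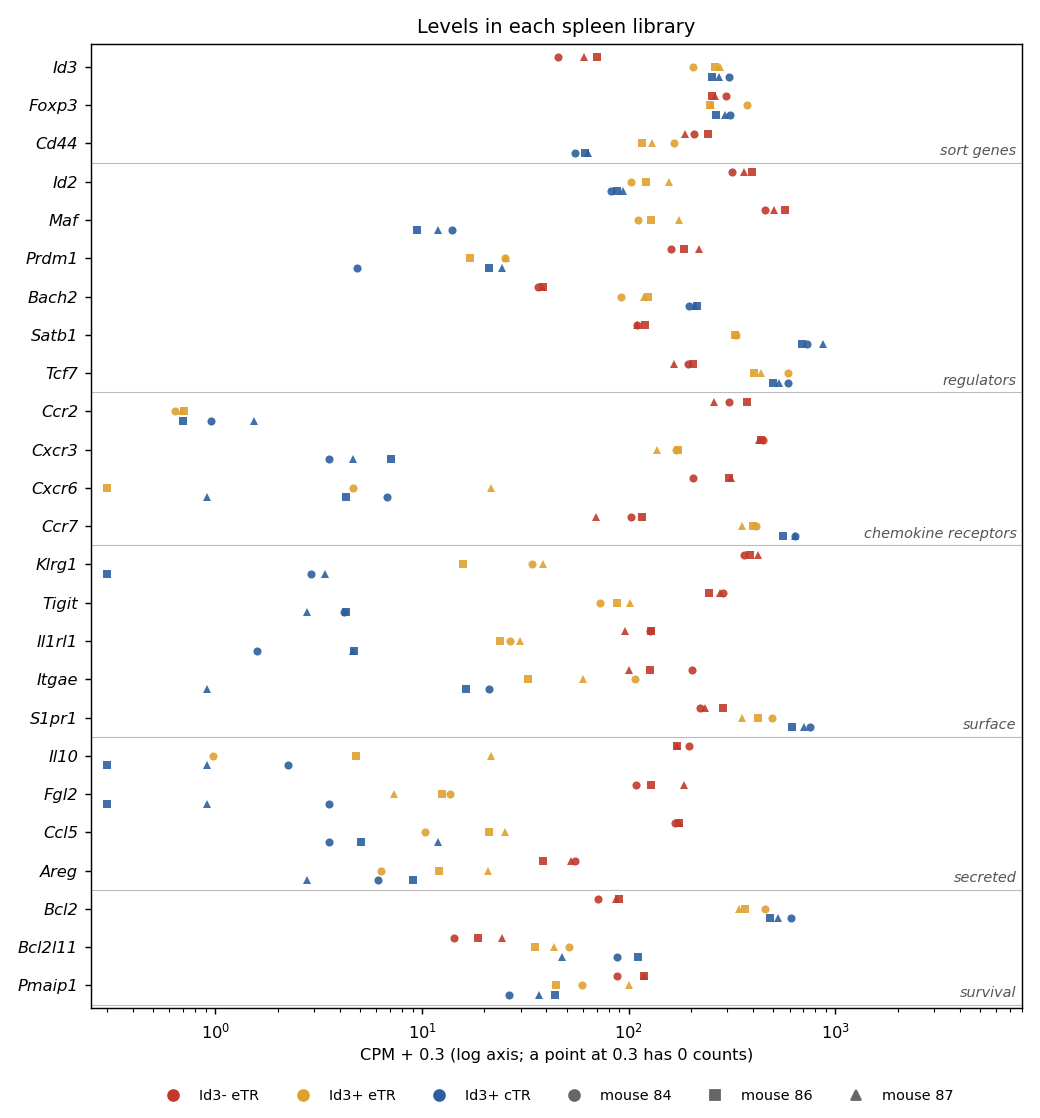
Points are single spleen libraries of Id3- eTR (red), Id3+ eTR (orange) and Id3+ cTR (blue), with the mouse as the symbol and CPM + 0.3 on a log axis. For Satb1, Bach2, Maf and Tigit the 3 populations form separate levels, while Ccr2 and Prdm1 in Id3+ eTR lie near Id3+ cTR.

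Receptors for chemokines, which guide cells into tissues, were mostly higher. Of 21 listed and 16 tested, 10 were higher in Id3- eTR (among them Ccr1, Ccr2, Ccr4, Cxcr3, Cxcr6, Ccr3, Ccr8, Ccr6 and Ccrl2) and 1 was lower (Ccr7). The median log2 change was 4.41, or 3.54 with genes at 0 counts set to their bound. Ccr2, a receptor for inflammatory monocyte chemokines, had 307, 375 and 257 CPM in Id3- eTR, 0.335, 0.407 and 0.389 CPM in Id3+ eTR and 0.65, 0.4 and 1.23 CPM in Id3+ cTR (log2 change 8.69 ± 0.41 SE, adjusted p = 9.06e-10). The Id3+ libraries of both kinds were near 0 for this receptor. Cxcr3, the receptor for interferon-induced chemokines, had 445, 435 and 425 CPM in Id3- eTR, 169, 173 and 137 CPM in Id3+ eTR and 3.25, 6.79 and 4.32 CPM in Id3+ cTR. Ccr4 and Ccr8, both receptors known from skin-homing TR, had 137, 117 and 126 CPM and 232, 101 and 210 CPM in Id3- eTR. In Id3+ cTR, Ccr4 had 0.65, 0 and 1.23 CPM and Ccr8 had 20.2, 5.99 and 25.3 CPM. Ccr7, the receptor for lymph node entry, fell to 103, 115 and 69.5 CPM in Id3- eTR, against 633, 557 and 639 CPM in Id3+ cTR, with 410, 397 and 351 CPM in Id3+ eTR. All 11 calls held in each fit without 1 library, and all 11 were also made in the fit without the 3 libraries.

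Some called receptor genes are neighbours. In the GENCODE M21 order of protein-coding genes, the stretch of chromosome 1 between Il1r2 and Il18rap holds 6 receptor genes of the interleukin 1 family. Of its 5 tested genes, Il1r2, Il1rl1, Il18r1 and Il18rap were higher and Il1r1 did not pass the test (log2 change 5.36, adjusted p = 0.0607). This stretch was chosen after the values were seen. Over the genome, 26.3% of the 832 protein-coding genes called higher had another higher gene as the next tested gene on either side, against 14.6% of all 10723 tested protein-coding genes. Of the 586 called lower, 19.6% had a lower gene next to them, against 10.5% of all. Overlapping genes and gene families with shared reads enter these shares, and their part was not tested.

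The interleukin 1 receptor family as a whole had 4 of 7 tested genes higher, 0 lower and a median log2 change of 4.68. Il1rl1 encodes ST2, the receptor for the alarmin interleukin 33. It had 127, 128 and 95.6 CPM in Id3- eTR, 26.5, 23.6 and 29.5 CPM in Id3+ eTR and 1.3, 4.4 and 4.32 CPM in Id3+ cTR (log2 change 5.05 ± 0.41 SE, adjusted p = 3.56e-07). Il18r1, which encodes a chain of the interleukin 18 receptor, rose to 207, 266 and 265 CPM in Id3- eTR, against 33.8, 56.3 and 36.4 CPM in Id3+ cTR. Il1r2, a decoy receptor for interleukin 1, varied widely at 172, 27.3 and 87.6 CPM in Id3- eTR, with 2 counts in all in Id3+ cTR, a ratio of 287 (95% counting interval 79.1 to 2370).

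Other cytokine receptors moved both ways. Of 25 tested, 7 were higher (Il9r, Il23r, Il17rb, Il12rb1, Il10ra, Il15ra and Ifngr1) and 5 lower (Tgfbr3, Il6ra, Ifngr2, Il6st and Il2ra), with a median log2 change of 0.06. Il10ra, a chain of the interleukin 10 receptor, had 254, 185 and 249 CPM in Id3- eTR and 40.3, 56.3 and 64.7 CPM in Id3+ cTR (log2 change 2.09 ± 0.27 SE, adjusted p = 5.75e-05). Il9r had 193 counts in Id3- eTR and 0 in Id3+ cTR, at least 46.8-fold higher. Il2ra, which encodes CD25, the chain for high-affinity interleukin 2 binding, fell to 396, 483 and 325 CPM in Id3- eTR, against 704, 628 and 840 CPM in Id3+ cTR (log2 change -0.85 ± 0.16 SE, adjusted p = 0.00168). Il6ra, the interleukin 6 receptor, fell to 41.7, 64.5 and 35.5 CPM, against 113, 157 and 118 CPM in Id3+ cTR. The chains of the interferon gamma receptor parted, with Ifngr1 higher (log2 change 0.40 ± 0.08 SE) and Ifngr2 lower (-1.45 ± 0.31 SE). Il7r, the interleukin 7 receptor, had 486, 615 and 634 CPM in Id3- eTR and 342, 358 and 462 CPM in Id3+ cTR and did not pass the test (adjusted p = 0.0599), though it did with mouse as a block (0.0248). Without the 3 libraries 5 of the list were higher and 2 lower. Il17rb was lost without either library of mouse 84, Id3- eTR of 86 or Id3+ cTR of 87 (adjusted p up to 0.202) and with mouse as a block (0.0704), and Il6st without each library except Id3+ cTR of mouse 86 (up to 0.133).

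Genes of lymphoid recirculation were mostly lower. Of 14 tested recirculation genes, 8 were lower (among them Igfbp4, Dapl1, Ccr7, Actn1, S1pr1, Klf2 and Icam2), 2 were higher (Itgal and Itga4), and the median log2 change was -0.92. The count of lower genes includes a gene used in the sort. S1pr1, the receptor for the lipid that draws T cells out of lymphoid organs, had 220, 286 and 233 CPM in Id3- eTR, 491, 423 and 352 CPM in Id3+ eTR and 752, 616 and 707 CPM in Id3+ cTR (log2 change -1.49 ± 0.13 SE, adjusted p = 7.05e-07). Igfbp4, which encodes a binding protein for insulin-like growth factors, had 5.04, 4.24 and 0 CPM in Id3- eTR, 179, 109 and 72.7 CPM in Id3+ eTR and 289, 226 and 212 CPM in Id3+ cTR. The populations did not overlap for either gene. The call of Icam2 was lost without each library except Id3- eTR of mouse 84 (adjusted p up to 0.154).

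Of 16 tested integrin subunits, 7 were higher (Itga1, Itgae, Itgb8, Itgb1, Itgav, Itgal and Itga4) and 2 lower (Itga7 and Itga6), with a median log2 change of 1.23. Itgae encodes CD103, the chain that binds epithelial E-cadherin. It had 201, 127 and 99.7 CPM in Id3- eTR, 107, 32.1 and 59.8 CPM in Id3+ eTR and 20.8, 15.98 and 0.617 CPM in Id3+ cTR (log2 change 3.48 ± 0.54 SE, adjusted p = 0.000284). Itgb8 and Itgav, whose products pair into an integrin that activates latent TGF-beta, had log2 changes of 1.96 ± 0.25 SE (adjusted p = 5.07e-05) and 1.75 ± 0.27 SE (adjusted p = 0.000243). Itgb1, the shared beta 1 chain, had 444, 463 and 416 CPM in Id3- eTR, 438, 329 and 379 CPM in Id3+ eTR and 116, 146 and 108 CPM in Id3+ cTR, so both effector populations were well above the central one. Itga6, a chain of laminin receptors, fell to 147, 162 and 129 CPM in Id3- eTR, against 313, 296 and 300 CPM in Id3+ cTR. The call of Itgal, the chain of LFA-1, was lost without each library except Id3+ cTR of mouse 87 (adjusted p up to 0.107). That of Itga7 was lost without each library except Id3+ cTR of mouse 86 (adjusted p up to 0.0927). Of 15 tested genes for selectin ligands and their glycosyltransferases, Chst2, Gcnt1 and the sort gene Cd44 were higher and St3gal4 and Selplg lower. Gcnt1, a core enzyme for selectin-binding glycans, had 14.4, 43.3 and 13.9 CPM in Id3- eTR and 0, 2.0 and 0 CPM in Id3+ cTR. Neither lower gene was called without the 3 libraries.

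Inhibitory receptors, which dampen T cell responses, moved both ways and mostly up. Of 16 tested, 6 were higher (Klrg1, Tigit, Havcr2, Pdcd1, Cd200r1 and Ctla4) and 2 lower (Cd96 and Btla), with a median log2 change of 0.63. Klrg1, a cadherin-binding lectin that marks terminal effector cells, had 359, 385 and 421 CPM in Id3- eTR, 33.8, 15.5 and 38.1 CPM in Id3+ eTR and 2.6, 0 and 3.08 CPM in Id3+ cTR (log2 change 7.86 ± 0.52 SE, adjusted p = 2.98e-08). Tigit had 285, 245 and 275 CPM in Id3- eTR, 72.0, 87.9 and 101 CPM in Id3+ eTR and 3.9, 4.0 and 2.47 CPM in Id3+ cTR (log2 change 6.23 ± 0.34 SE, adjusted p = 2.21e-09). Pdcd1, which encodes PD-1, had 360, 196 and 277 CPM in Id3- eTR and 29.3, 40.8 and 36.4 CPM in Id3+ cTR. These genes differed many-fold, while Ctla4, the receptor by which TR strip costimulatory ligands, had 682, 743 and 649 CPM in Id3- eTR and 525, 423 and 498 CPM in Id3+ cTR (log2 change 0.52 ± 0.10 SE, adjusted p = 0.00243). With mouse as a block and only these 2 groups in the fit Ctla4 was not called. Cd96 (log2 change -0.70) and Btla (-0.57) were not called without the 3 libraries (adjusted p = 0.0974 and 0.157).

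Of 19 tested TNF receptor family genes, 4 were higher (Tnfrsf8, Tnfrsf1b, Tnfrsf9 and Tnfrsf13b) and 2 lower (Relt and Fas). Tnfrsf1b encodes TNFR2, a costimulator of TR. It had 326, 254 and 299 CPM in Id3- eTR, 456, 114 and 139 CPM in Id3+ eTR and 73.5, 38.0 and 90.6 CPM in Id3+ cTR (log2 change 2.15 ± 0.42 SE, adjusted p = 0.00203). Its high value in Id3+ eTR came from the library of mouse 84. Fas, the death receptor, fell to 99.7, 92.8 and 120 CPM in Id3- eTR, against 242, 201 and 246 CPM in Id3+ cTR (log2 change -1.14 ± 0.17 SE, adjusted p = 0.000192). Tnfrsf18, which encodes GITR, had 352, 358 and 339 CPM in Id3- eTR and 353, 296 and 405 CPM in Id3+ cTR, with overlapping ranges and an adjusted p of 0.991. Tnfrsf9 was lost without either Id3- eTR library of mice 84 and 87 (adjusted p up to 0.0569). Relt and Tnfrsf13b were each lost in 4 or more of the 6 fits without 1 library (up to 0.156 and 0.14). Of 12 tested TNF ligands, Tnfsf13b, Tnfsf14, Tnfsf11, Tnfsf9, Tnfsf10 and Tnf were higher and Lta and Tnfsf8 lower. Tnfsf11, which encodes RANKL, had 100, 87.1 and 102 CPM in Id3- eTR and 29.9, 15.2 and 14.2 CPM in Id3+ cTR (log2 change 2.31 ± 0.35 SE, adjusted p = 0.000244). Lta, which encodes lymphotoxin alpha, fell to 73.0, 84.8 and 110 CPM in Id3- eTR, against 161, 170 and 218 CPM in Id3+ cTR. In the ligand list 3 of the higher and 1 of the lower calls held in every fit without 1 library, as many as without the 3 libraries.

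Most tested secreted mediators were called higher and 0 were called lower. Of 25 listed, 16 were tested, 14 had a positive log2 change and 11 were higher (Il4, Ccl20, Il10, Fgl2, Cxcl10, Ebi3, Gzmb, Ccl5, Ifng, Areg and Penk). The median log2 change was 4.76, or 4.66 with genes at 0 counts set to their bound. Il10, the suppressive cytokine, had 196, 171 and 170 CPM in Id3- eTR, 0.67, 4.48 and 21.4 CPM in Id3+ eTR and 1.95, 0 and 0.617 CPM in Id3+ cTR (log2 change 7.87 ± 0.89 SE, adjusted p = 1.23e-05). Fgl2, a secreted suppressor of T and dendritic cells, had 108, 127 and 185 CPM in Id3- eTR, 13.4, 12.2 and 7.0 CPM in Id3+ eTR and 3.25, 0 and 0.617 CPM in Id3+ cTR. Ebi3, a subunit of interleukin 35, had 106, 72.5 and 107 CPM in Id3- eTR, 39.9, 50.1 and 64.1 CPM in Id3+ eTR and 0.65, 5.99 and 1.23 CPM in Id3+ cTR. Il10 and Fgl2 thus set Id3- eTR apart from both Id3+ populations, while Ebi3 in Id3+ eTR was well above Id3+ cTR. Cytokines of inflammation were among the higher genes. Ifng had 122, 167 and 137 CPM in Id3- eTR, 43.9, 65.9 and 49.4 CPM in Id3+ eTR and 0, 7.59 and 15.4 CPM in Id3+ cTR (log2 change 4.18 ± 0.63 SE, adjusted p = 0.000237). Il4 had 125 counts in Id3- eTR and 0 in Id3+ cTR, at least 30.3-fold higher. Areg, the epithelial repair factor amphiregulin, had 54.7, 38.1 and 52.5 CPM in Id3- eTR and 5.85, 8.79 and 2.47 CPM in Id3+ cTR (log2 change 3.03 ± 0.48 SE, adjusted p = 0.000359). Penk, which encodes the precursor of enkephalins, had 255, 200 and 278 CPM in Id3- eTR, 162, 173 and 172 CPM in Id3+ eTR and 13.7, 57.5 and 43.8 CPM in Id3+ cTR. All 11 calls held in each fit without 1 library, and 9 without the 3 libraries, where Ccl20 (adjusted p = 0.0606) and Penk (adjusted p = 0.171) were lost. Tgfb1 had 39.6, 35.8 and 54.9 CPM in Id3- eTR and 26.0, 51.5 and 64.1 CPM in Id3+ cTR and was not called (adjusted p = 0.874).

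Genes of T cell receptor signaling leaned lower. Of 26 tested, 4 were higher (Ubash3b, Sh2d1a, Ptpn22 and Sh2d2a) and 9 lower (Txk, Themis, Prkcq, Grap2, Dgka, Ptpn6, Cd247, Tespa1 and Lck), with a median log2 change of -0.25. Txk, a TEC-family kinase, had 80.2, 107 and 104 CPM in Id3- eTR, 114, 202 and 128 CPM in Id3+ eTR and 272, 287 and 329 CPM in Id3+ cTR (log2 change -1.61 ± 0.17 SE, adjusted p = 6.44e-06). Themis, a signaling regulator of developing T cells, fell to 94.6, 86.6 and 98.0 CPM, against 187, 252 and 265 CPM in Id3+ cTR. Ptpn22, a phosphatase that dampens receptor signals, rose to 545, 602 and 560 CPM in Id3- eTR, against 339, 361 and 429 CPM in Id3+ cTR (log2 change 0.60 ± 0.10 SE, adjusted p = 0.000706). The smaller declines were less stable. Lck, Grap2, Tespa1 and Ptpn6 were each lost without single libraries, with adjusted p up to 0.13, 0.141, 0.169 and 0.074, Lck without either library of mouse 84 or of mouse 87. Sh2d2a was not called with mouse as a block (adjusted p = 0.0653). In all, 2 of the higher and 5 of the lower calls held in every fit without 1 library, and without the 3 libraries 3 were higher and 3 lower.

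Activation-induced feedback genes leaned higher, with 8 of 19 tested higher (Tox2, Egr2, Egr1, Spry1, Tox, Socs2, Cish and Dusp1) and 2 lower (Dusp10 and Myc). Egr2, a target of receptor signals that restrains T cells, had 46.0, 49.9 and 52.5 CPM in Id3- eTR, 124, 42.3 and 52.9 CPM in Id3+ eTR and 1.95, 4.79 and 17.3 CPM in Id3+ cTR (log2 change 2.65 ± 0.54 SE, adjusted p = 0.00289). Tox, a factor of chronically stimulated T cells, rose to 274, 297 and 298 CPM in Id3- eTR, against 138, 163 and 154 CPM in Id3+ cTR. Myc, a growth regulator, fell to 91.7, 110 and 78.2 CPM in Id3- eTR, against 150, 205 and 208 CPM in Id3+ cTR (log2 change -1.01 ± 0.16 SE, adjusted p = 0.000278). Socs2 was lost in 3 of the fits, without Id3+ cTR of mouse 84 or 87 or Id3- eTR of 86 (adjusted p up to 0.0886), and Dusp1 without Id3- eTR of mouse 86 (adjusted p = 0.0519). Of 22 tested immediate-early and heat-shock genes, which rise when tissue is dissociated, 2 were higher (Fosb and Ier5) and 0 were lower. This is 9.09% of the list, below the 12.3% called over all genes tested. With mouse as a block 5 of the 22 were higher, adding Hspa1a (adjusted p = 0.0274), Hspa1b (0.0172) and Hsph1 (0.0267). The calls of Fosb and Ier5 were lost without single libraries and without the 3 libraries. The list summed to 6100 to 8380 CPM in Id3- eTR and 6480 to 7630 CPM in Id3+ cTR, and its part in the other results was not tested.

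RGS proteins, which shorten signals from chemokine receptors, had 4 of 10 tested genes higher (Rgs16, Rgs3, Rgs1 and Rgs2) and 2 lower (Rgs10 and Rgs19). Rgs16 had 98.6, 76.7 and 130 CPM in Id3- eTR, 96.5, 63.9 and 64.9 CPM in Id3+ eTR and 14.3, 25.2 and 23.4 CPM in Id3+ cTR (log2 change 2.26 ± 0.31 SE, adjusted p = 0.000107). Only its call held in every fit without 1 library. The others were lost in 2 to 6 of these fits, with the highest adjusted p between 0.0628 (Rgs10) and 0.117 (Rgs2). Receptors for lipid mediators had 7 of 20 tested genes higher (Ltb4r1, Cysltr1, Cysltr2, Lpar6, Ptger4, Ptger2 and Gpr183) and 2 lower (S1pr1 and Gpr34). Ltb4r1, the receptor for leukotriene B4, had 280 counts in Id3- eTR and 0 in Id3+ cTR, at least 67.9-fold higher. Ptger4, a receptor for prostaglandin E2, rose to 261, 182 and 220 CPM in Id3- eTR, against 97.5, 103 and 85.1 CPM in Id3+ cTR (log2 change 1.21 ± 0.16 SE, adjusted p = 7.59e-05). Gpr183, the oxysterol receptor EBI2 that positions lymphocytes, had 398, 459 and 390 CPM in Id3- eTR and 275, 255 and 282 CPM in Id3+ cTR (log2 change 0.62 ± 0.11 SE). Ptger2 was not called without Id3+ cTR of mouse 87 (adjusted p = 0.0662). Genes of purine handling had 4 of 10 tested genes higher (Cd38, Entpd1, Nt5e and Adora2a) and 0 lower. Nt5e encodes CD73, which with CD39 turns extracellular ATP into adenosine. It had 493, 518 and 470 CPM in Id3- eTR, 506, 294 and 358 CPM in Id3+ eTR and 167, 244 and 168 CPM in Id3+ cTR (log2 change 1.35 ± 0.18 SE, adjusted p = 5.75e-05). Entpd1, which encodes CD39, had 134, 126 and 152 CPM in Id3- eTR and 77.4, 34.8 and 21.0 CPM in Id3+ cTR (log2 change 1.64 ± 0.38 SE, adjusted p = 0.00789). Adora2a, an adenosine receptor, was not called without Id3+ cTR of mouse 87 (adjusted p = 0.0612).

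The BCL2 family, which sets the threshold for cell death, had 2 of 13 tested genes higher (Pmaip1 and Bcl2a1b) and 3 lower (Bcl2, Bcl2l11 and Mcl1). Bcl2, the survival protein, had 70.5, 89.0 and 86.9 CPM in Id3- eTR, 458, 367 and 342 CPM in Id3+ eTR and 609, 481 and 525 CPM in Id3+ cTR (log2 change -2.71 ± 0.13 SE, adjusted p = 9.99e-10). Id3+ eTR were below Id3+ cTR and well above Id3- eTR. Bcl2l11, which encodes the death-promoting protein BIM, also fell, to 14.0, 18.4 and 24.0 CPM in Id3- eTR, against 87.1, 111 and 47.5 CPM in Id3+ cTR (log2 change -2.12 ± 0.28 SE, adjusted p = 6.74e-05). Pmaip1, which encodes NOXA, an inhibitor of MCL1, rose to 87.8, 118 and 119 CPM in Id3- eTR, against 26.0, 43.6 and 36.4 CPM in Id3+ cTR (log2 change 1.60 ± 0.27 SE, adjusted p = 0.00054). Mcl1 fell by less (log2 change -0.53 ± 0.11 SE, adjusted p = 0.00242). Pro-survival and pro-death members thus moved in both directions. Bcl2a1b, which shares much of its sequence with its neighbours of the Bcl2a1 family, is uncertain and was not called without Id3+ cTR of mouse 86 (adjusted p = 0.0557). Pmaip1 (adjusted p = 0.0698) and Mcl1 (adjusted p = 0.0598) were not called without the 3 libraries.

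The S100, annexin and galectin families had 8 of 20 tested genes higher (Lgals3, Anxa1, S100a4, S100a3, S100a6, Anxa4, S100a11 and Anxa2) and 0 lower, with a median log2 change of 1.11. S100a4, a calcium-binding protein of motile effector cells, had 147, 185 and 141 CPM in Id3- eTR, 28.5, 36.2 and 38.9 CPM in Id3+ eTR and 2.6, 1.2 and 1.23 CPM in Id3+ cTR (log2 change 6.58 ± 0.33 SE, adjusted p = 1.33e-09). S100a6 had 168, 194 and 178 CPM in Id3- eTR and 18.2, 7.19 and 9.25 CPM in Id3+ cTR. Lgals3 and Anxa1 had 354 and 252 counts in Id3- eTR and 0 in Id3+ cTR, at least 85.8-fold and 61.1-fold higher. S100a3 was lost without either library of mouse 84 or of mouse 87 (adjusted p up to 0.0963). Actin and migration genes had 4 of 26 tested genes higher (Myo1f, Ahnak, Myo1e and Capg) and 4 lower (Actn1, Pfn1, Cfl1 and Coro1a). Ahnak, a giant scaffold protein, had 775, 866 and 676 CPM in Id3- eTR, 402, 398 and 362 CPM in Id3+ eTR and 155, 153 and 145 CPM in Id3+ cTR (log2 change 2.35 ± 0.12 SE, adjusted p = 1.33e-09). Myo1f, a class I myosin of leukocytes, rose to 288, 251 and 259 CPM, against 8.45, 5.99 and 8.63 CPM in Id3+ cTR. Pfn1, Cfl1 and Coro1a were each lost without either library of mouse 84 or of mouse 87 (adjusted p up to 0.133, 0.182 and 0.0778), Cfl1 also with mouse as a block (0.0662), and without the 3 libraries 4 of the list were higher and 1 lower. Capg was lost without either library of mouse 86 or Id3- eTR of 84 (adjusted p up to 0.0972).

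Smaller families held single clear members. Of 4 tested killer cell lectin-like receptor genes, Klrg1 and Klrb1f were higher, and Klrb1f had 52.5, 69.2 and 47.3 CPM in Id3- eTR and 1 count in Id3+ cTR, a ratio of 312 (95% counting interval 55.7 to 12400). Of 7 tested Ly6 genes, Ly6c1 and Ly6k were lower. Ly6c1, part of a family of near-identical genes whose reads may be shared, had 35.3, 31.5 and 13.2 CPM in Id3- eTR, 100, 165 and 132 CPM in Id3+ eTR and 326, 254 and 364 CPM in Id3+ cTR (log2 change -3.57 ± 0.29 SE, adjusted p = 4.15e-07). Ly6k was lost without either library of mouse 86, Id3- eTR of 84 or Id3+ cTR of 87 (adjusted p up to 0.132). Of 13 tested semaphorins, plexins and neuropilins, Nrp1 and Sema6d were higher and Sema4a lower. Nrp1, the neuropilin of thymus-derived TR, had 454, 446 and 407 CPM in Id3- eTR, 497, 444 and 429 CPM in Id3+ eTR and 191, 203 and 203 CPM in Id3+ cTR (log2 change 1.13 ± 0.09 SE, adjusted p = 3.99e-07), so both effector populations shared the higher level. Sema6d was lost without Id3+ cTR of mouse 86 (adjusted p = 0.0502), and Sema4a without either library of mouse 84 or Id3+ cTR of mouse 86 (up to 0.0668). Of 24 tested cathepsins and serpins, 6 were higher (Serpina3f, Serpinf1, Serpina9, Serpina3g, Ctsa and Ctsb) and 2 lower (Serpine2 and Ctsw). Serpina3g, a cathepsin inhibitor, had 541, 503 and 509 CPM in Id3- eTR, 206, 255 and 264 CPM in Id3+ eTR and 32.5, 46.8 and 43.2 CPM in Id3+ cTR (log2 change 3.65 ± 0.15 SE, adjusted p = 3.77e-10), and may share reads with its close relative Serpina3f. Both lower calls and that of Serpina9 were lost without single libraries (adjusted p up to 0.142, 0.109 and 0.0766 for Serpine2, Ctsw and Serpina9). Of 8 tested GIMAP genes, Gimap6 was lower (log2 change -0.41), a called share of 12.5%, near the 12.3% over all genes tested. The call of Gimap6 was lost without Id3+ cTR of mouse 84 or 87 or Id3- eTR of mouse 87 (adjusted p up to 0.0953).

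**Figure D3:**
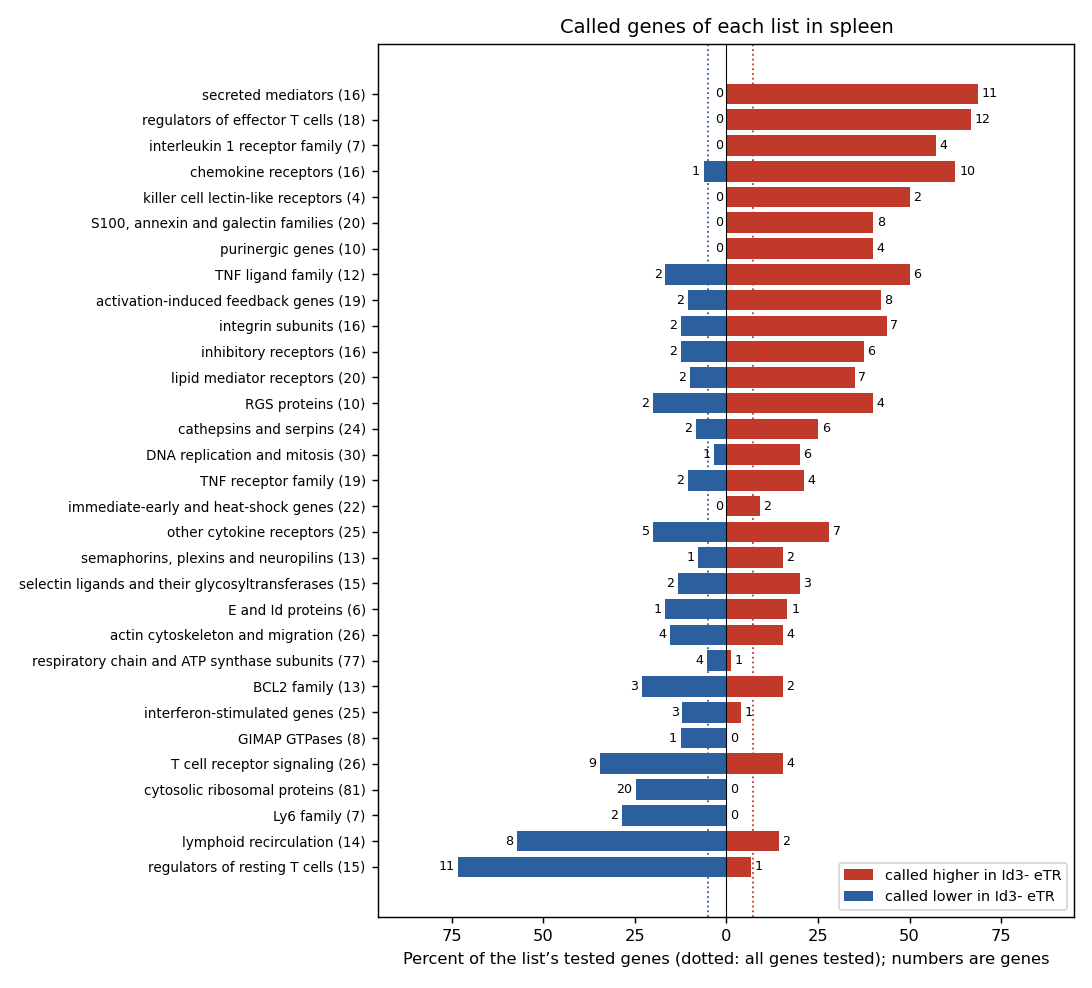
Bars give the percent of each list's tested genes (number in brackets) called higher in Id3- eTR (red, right) or lower (blue, left), with the number of genes at the bar's end. Dotted lines mark the shares over all genes tested, 7.17% higher and 5.09% lower. Secreted mediators, effector regulators and chemokine receptors reach furthest to the right, and resting regulators and recirculation genes furthest to the left.

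Genes of DNA replication and mitosis were higher in part. Of 30 tested, 6 were higher (Mki67, Cdk1, Top2a, Rrm2, Tyms and Hmgb2) and 1 lower (Tubb5), with a median log2 change of 0.72. Mki67, the proliferation marker, had 129, 54.6 and 86.2 CPM in Id3- eTR, 10.7, 10.6 and 11.7 CPM in Id3+ eTR and 1 count in all in Id3+ cTR, a ratio of 526 (95% counting interval 94.1 to 20800). Top2a had 46.8, 24.5 and 66.7 CPM in Id3- eTR and 0.65, 4.0 and 3.7 CPM in Id3+ cTR (log2 change 3.96 ± 0.79 SE, adjusted p = 0.00255). The calls of Mki67, Top2a and Tyms held in every fit without 1 library, and 2 of the list were called without the 3 libraries. Cdk1 was lost without either library of mouse 84 or of mouse 86 (adjusted p up to 0.148) and with mouse as a block (0.0796), Rrm2 without Id3+ cTR of mouse 84 or 86 (up to 0.0632), Hmgb2 without Id3- eTR of mouse 87 (0.0536) and Tubb5 without Id3+ cTR of mouse 84 or Id3- eTR of mouse 86 or 87 (up to 0.0597). Of 25 tested interferon-stimulated genes, 1 was higher (Oas1a) and 3 lower (Oas2, Usp18 and Irf9). Usp18, a brake on type I interferon signaling, had 84.9, 84.8 and 65.3 CPM in Id3- eTR, 175, 272 and 190 CPM in Id3+ eTR and 207, 288 and 279 CPM in Id3+ cTR (log2 change -1.72 ± 0.34 SE, adjusted p = 0.0022). Oas1a and Oas2, which are close relatives, had log2 changes of 1.25 and -5.27, and were lost without Id3+ cTR of mouse 84 (adjusted p = 0.0509) and without Id3- eTR of mouse 84 (adjusted p = 0.05003). Irf9 was lost without Id3+ cTR of mouse 87 (adjusted p = 0.059).

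Genes with many counts per length leaned lower in mice 84 and 87. Genes were ranked by mean CPM per kilobase of exon (GENCODE M21, 12028 genes) and split into 10 equal bins. In the densest bin, at 59.8 to 769 CPM per kb, 80 genes were higher and 172 lower, of 1203. The median log2 difference there was -0.22 in mouse 84, 0.04 in mouse 86 and -0.28 in mouse 87, and mice 84 and 87 are those with the shallow Id3+ cTR libraries. Without the 3 libraries, 61 genes of that bin were higher and 52 lower. In lymph node, where no library was as shallow, it held 110 higher and 80 lower genes. Of 81 tested cytosolic ribosomal proteins, 0 were higher and 20 lower, with a median log2 change of -0.58. In lymph node 0 were higher and 8 lower, with a median of -0.44. None was called in spleen without the 3 libraries, although changes could stay as large. Rpl12 had a log2 change of -1.12 with all libraries and -1.17 without the 3, and its log2 difference was -1.12 in mouse 84, -1.47 in mouse 86 and -0.74 in mouse 87. Rps15a instead had -0.82 with all libraries and -0.33 without the 3. Its log2 difference was -1.21 in mouse 84, -0.19 in mouse 86 and -0.94 in mouse 87. With mouse as a block Rps15a was not called (adjusted p = 0.0633), and 16 of the list were lower. The listed ribosomal protein genes summed to 3310 to 3830 CPM in Id3- eTR, 3320 to 4330 CPM in Id3+ eTR and 4450 to 5880 CPM in Id3+ cTR, with no overlap between Id3- eTR and Id3+ cTR. Only 6 of these 20 calls held in every fit without 1 library. Many ribosomal protein genes have processed pseudogenes with near-identical sequence, so their counts are uncertain. Respiratory chain and ATP synthase subunits had 1 of 77 tested genes higher (Atp5s) and 4 lower (Cox7a2l, Atp5b, Ndufv1 and Atp5a1). Together 6.49% of this list was called, below the 12.3% over all genes tested. Atp5b had 640, 725 and 588 CPM in Id3- eTR and 1045, 731 and 1047 CPM in Id3+ cTR, and the libraries of mouse 86 were close to each other. The part of depth in the lower calls given here was not tested.

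**Figure D4:**
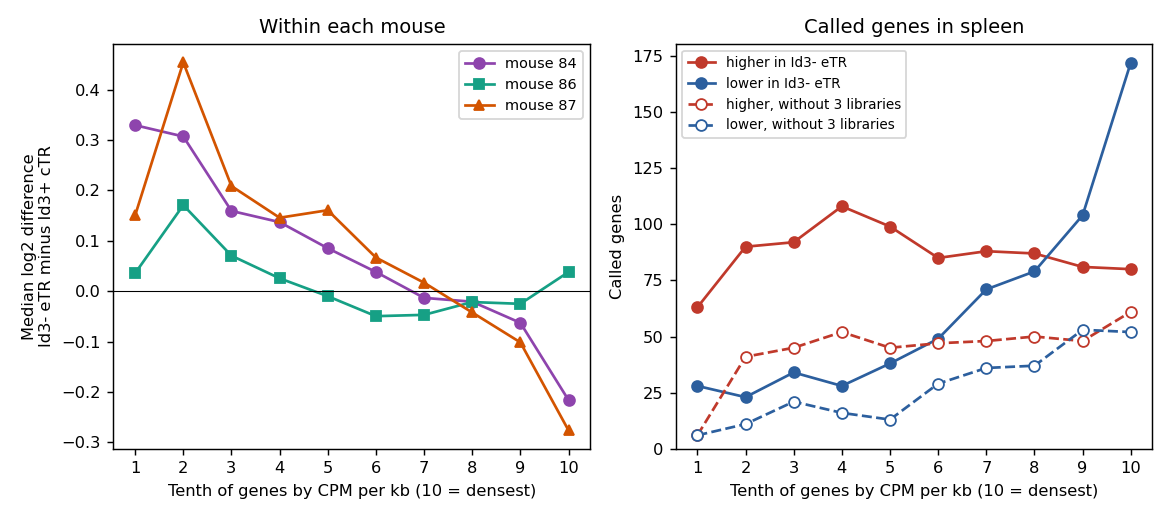
Genes are split into 10 bins by CPM per kb, with 10 the densest. The left panel gives the median log2 difference (Id3- eTR minus Id3+ cTR) within each mouse, which falls to -0.22 and -0.28 in the densest bin in mice 84 and 87 and is 0.04 in mouse 86. The right panel gives called genes with all libraries (filled) and without the 3 libraries that stand apart (open). Lower calls in the densest bin number 172 and 52.

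Markers of other cells were present in both populations. Myeloid and dendritic markers summed to 247 to 296 CPM in Id3- eTR and 137 to 264 CPM in Id3+ cTR, and 3 of 6 tested were higher (Cd68, Fcer1g and Tyrobp). Cd68 had 29.1, 13.2 and 9.04 CPM in Id3- eTR and 4.55, 0.4 and 0 CPM in Id3+ cTR. Itgam had 3 counts over the 3 Id3- eTR libraries and 0 in Id3+ cTR, and Adgre1 44 and 0. All 3 calls were lost without single libraries (adjusted p up to 0.138, 0.164 and 0.0804 for Cd68, Fcer1g and Tyrobp) and without the 3 libraries, and that of Fcer1g with mouse as a block (0.0655). CD8 T and NK markers summed to 155 to 210 CPM in Id3- eTR and 76.3 to 170 CPM in Id3+ cTR. Of them Nkg7, a granule gene that activated TR can also express, was higher (169, 116 and 157 CPM in Id3- eTR and 60.5, 34.4 and 30.8 CPM in Id3+ cTR), and Ncr1 was at 0 in both populations. The other members moved both ways and none was called. Summed over 3 libraries, Cd8a had 45 counts in Id3- eTR and 104 in Id3+ cTR, Cd8b1 216 and 266, and Eomes 2 and 13. Klrb1c had 23 and 0, and Klrd1 10 and 5. B cell markers summed to 825 to 887 CPM in Id3- eTR and 821 to 964 CPM in Id3+ cTR, most of it Ighm, with 697, 767 and 669 CPM in Id3- eTR and 815, 593 and 812 CPM in Id3+ cTR, above Cd4 in every library. Over the 3 libraries of each population, Pax5 had 0 counts in Id3- eTR and 14 in Id3+ cTR, Cd22 had 174 and 54, and Cd79b had 824 and 464. Neither Cd22 (log2 change 1.36) nor Cd79b (0.43) was called. Cd79a was lower (log2 change -3.01), and its call was lost without either library of mouse 86 or of mouse 87 (adjusted p up to 0.109) and with mouse as a block (0.0504). Erythroid and platelet markers summed to 20.7 to 135 CPM in Id3- eTR and 191 to 324 CPM in Id3+ cTR, mostly hemoglobin genes. Alas2 was lower and was lost without Id3+ cTR of mouse 86 or Id3- eTR of mouse 87 (adjusted p up to 0.0789). Myeloid cells also express Ccr1, Ccr2, Fgl2 and Lgals3. The part of other cells in the results was not tested.

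Outside the lists, the 8 highest and 8 lowest called genes that moved the same way in every mouse were taken. Mmp9, a secreted protease that cuts matrix collagen, had 65.1, 97.0 and 91.4 CPM in Id3- eTR, 4.02, 11.4 and 0 CPM in Id3+ eTR and 0, 0.4 and 0 CPM in Id3+ cTR, and it was not called without the 3 libraries (adjusted p = 0.063). Asb2, which encodes a subunit of a ubiquitin ligase, had 190, 200 and 176 CPM in Id3- eTR and 0.65, 2.8 and 0.617 CPM in Id3+ cTR (log2 change 6.89 ± 0.69 SE, adjusted p = 3.47e-06). Ttc39c had 1318 counts in Id3- eTR and 1 in Id3+ cTR, a ratio of 959 (95% counting interval 172 to 37900). Sccpdh, Atp6v0d2, Nebl, Susd2 and Alox8 completed the higher genes, and each was under 3 CPM in every Id3+ cTR library. Among the lower genes, Lad1, which encodes ladinin of basement membranes, had 0, 3.3 and 0 CPM in Id3- eTR, 51.3, 48.8 and 44.3 CPM in Id3+ eTR and 68.3, 93.9 and 105 CPM in Id3+ cTR (log2 change -6.52 ± 0.77 SE, adjusted p = 1.91e-05). Nsg2, a gene known from neurons, had 9.35, 11.8 and 11.5 CPM in Id3- eTR, 114, 79.4 and 127 CPM in Id3+ eTR and 148, 145 and 136 CPM in Id3+ cTR, so both Id3+ populations were high. Sh3bgrl2 had 1.08, 0.471 and 3.48 CPM in Id3- eTR, 67.3, 69.2 and 38.1 CPM in Id3+ eTR and 27.3, 67.5 and 33.9 CPM in Id3+ cTR.

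The same comparison in lymph node, from other libraries of the same 3 mice, called 1610 of 12445 genes (12.9%). Of the 892 genes higher in spleen, 868 (97.3%) had the same sign in lymph node and 633 were called there in the same direction, 71.0% of the spleen genes and 61.6% of the 1028 lymph node genes. Of the 634 lower genes, 604 (95.3%) had the same sign and 311 were called in the same direction, 49.1% of the spleen genes and 53.4% of the 582 lymph node genes. Over all 12445 genes the log2 changes of the tissues correlated at r = 0.712, a description across genes, which are not replicates. Ccr2 (8.69 in spleen, 10.62 in lymph node), Maf (5.50 and 4.74), Il10 (7.87 and 8.56) and Bcl2 (-2.71 and -2.79) were called in both tissues. Egr1 was called in spleen (log2 change 1.83) and had 0.00 in lymph node, Trat1, an adaptor of the T cell receptor, had -1.11 and -0.07, and Il2ra had -0.85 and -0.08. None of these differences between the tissues passed the interaction test.

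The interaction test called 3 of 12445 genes (0.0241%), all higher in spleen Id3- eTR relative to their change in lymph node. Itga4 encodes the integrin alpha 4 chain that binds VCAM-1 and MAdCAM-1. It had 729, 830 and 732 CPM in spleen Id3- eTR and 536, 486 and 458 CPM in spleen Id3+ cTR, while in lymph node it had 164, 217 and 169 CPM in Id3- eTR and 395, 399 and 412 CPM in Id3+ cTR. It was thus higher in Id3- eTR of the spleen and lower in those of the lymph node, with no overlap in either tissue (interaction log2 1.76 ± 0.17 SE, adjusted p = 0.000109). Itga4 was called under all 20 alternatives. Cdca7l, a MYC-interacting nuclear factor, had 77.7, 60.7 and 78.9 CPM in spleen Id3- eTR and 37.7, 32.4 and 29.0 CPM in spleen Id3+ cTR, against 59.3, 50.05 and 40.6 CPM in lymph node Id3- eTR and 87.1, 60.2 and 78.8 CPM in lymph node Id3+ cTR (adjusted p = 0.038). P2rx7 encodes an ATP-gated channel that can kill T cells. It had 238, 183 and 178 CPM in spleen Id3- eTR and 127, 152 and 110 CPM in spleen Id3+ cTR, against 38.9, 69.0 and 41.7 CPM in lymph node Id3- eTR and 116, 128 and 103 CPM in lymph node Id3+ cTR (adjusted p = 0.038). The P2rx7 change within spleen itself was just short of the threshold (log2 0.62 ± 0.20 SE, adjusted p = 0.0534) and passed it with mouse as a block (adjusted p = 0.0201), where 5 in place of 4 of the purinergic genes were higher. Cdca7l and P2rx7 were each called under 6 of the 20 alternatives, with adjusted p up to 0.183 and 0.266. Across the fits without 1 library, the number of genes called ran from 1 to 5.

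**Figure D5:**
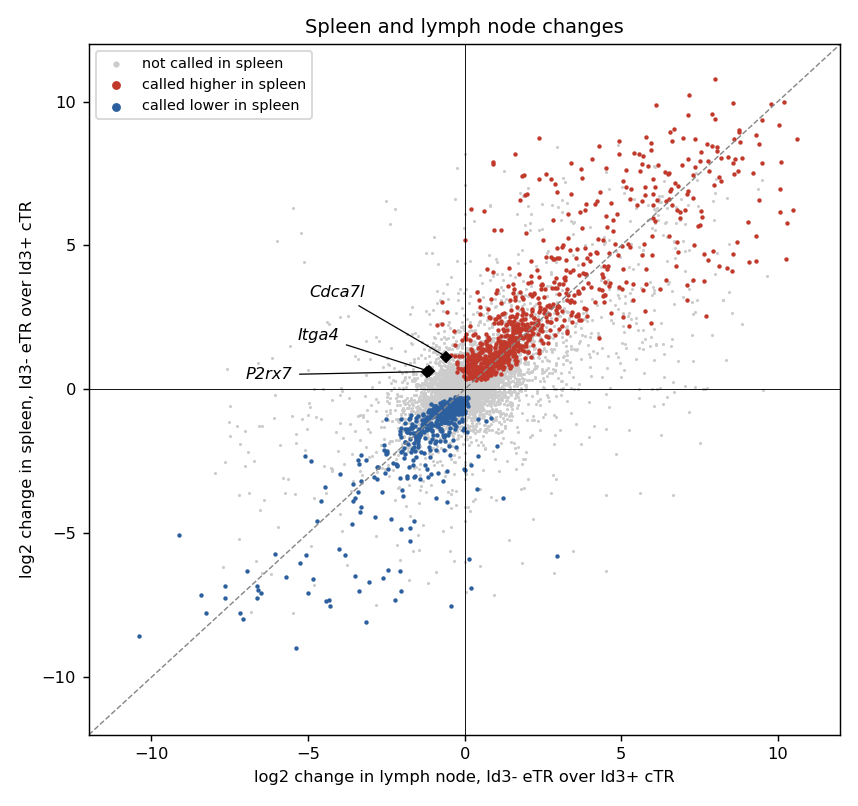
Each point is a gene, with its log2 change (Id3- eTR over Id3+ cTR) in lymph node on the x axis and in spleen on the y axis, and the dashed line marks equal change. Genes called in spleen lie mostly in the same quadrant in both tissues. The black diamonds mark Itga4, Cdca7l and P2rx7, which are above 0 in spleen and below 0 in lymph node.

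Id3+ eTR mostly lay between the ends. Their mean was between the means of Id3- eTR and Id3+ cTR for 786 of the 892 higher genes (88.1%) and 535 of the 634 lower genes (84.4%). These populations share no library, but the genes were chosen for a difference between the outer groups, so a mean in between is a description. Nearness was counted only among these genes with a mean in between, on log2 mean CPM with a small constant added. There Id3+ eTR were nearer to Id3- eTR than to Id3+ cTR for 493 of the 786 higher genes and 250 of the 535 lower ones. Id3+ eTR were above both for 66 higher genes and 64 lower genes, and below both for 40 and 35. Higher genes took 6.47% to 7.22% of the counts of Id3+ eTR libraries, and lower genes 11.6% to 12.1%. Id3+ eTR of mouse 84 differed from its group partners at 21.9 and 21.9 times the counting variance, where the other pairs of spleen libraries within a group stayed at or under 7.76, so values of that library stand apart.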

How the data were processed

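RNA of 500 sorted cells per library was measured by RNA sequencing (SMART-Seq v4 and a modified Nextera XT preparation, per the labels' protocols). The authors deposited whole-number read counts per gene with no normalization. Per the submitters' processing notes the tools included TopHat and Bowtie, HTSeq 0.4.1, Picard, SAMtools and FastQC, in no stated order. The genome build and the use of strand in counting are not given in the sources used here. A second, normalized table was not used here. Gene symbols came from GENCODE M21 for 32919 of 37991 genes, and the 5072 without one held 0.891% of counts.

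The counts were tested with edgeR 4.0.16 in R 4.3.3: filterByExpr with a minimum count of 10 (12445 genes kept), TMM scaling, and a robust quasi-likelihood fit of 6 groups over 18 libraries (12 residual degrees of freedom, biological coefficient of variation 0.294). A gene was called at a Benjamini-Hochberg adjusted p under 0.05. The median SE of a spleen log2 change was 0.317, and log2 CPM used a prior count of 2. Every adjusted p is from this test unless another tool is named. A fold against 0 counts was computed against 3 counts over the group. Ratios for 1 to 3 counts carry a 95% counting interval, which covers counting error only. The code was tested on simulated data.

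The libraries pair by mouse, since the same numbers mark the same animals. Deviations from the group means did not follow the mouse in spleen (r of -0.0061, -0.0228 and 0.00987 for mice 84, 86 and 87). In lymph node the r within a mouse was small but positive, at 0.0798, 0.0352 and 0.0284. Between different mice it ran there from -0.053 to 0.0181. The main test had no block, and the blocked fit was an alternative. Other alternatives were DESeq2 1.42.0, RLE size factors, no low-count filter, limma-voom (limma 3.58.1), only the groups compared, leaving out each library, and leaving out 3 libraries together.

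The comparison, gene lists and alternatives were chosen with earlier results of these data known. The rule for named genes took the sort genes and E and Id genes, up to 2 genes called higher and 2 called lower of largest change per list, the 8 highest and 8 lowest outside the lists, and genes called in the interaction. Other named members were chosen after their values were seen. Near-identical genes (Serpina3f and Serpina3g, Ly6c1, Bcl2a1b, Klrb1f, hemoglobins, ribosomal proteins) and overlapping genes are uncertain. Some genes are not reported here.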

Additional observations from a re-analysis of the deposited data

Results flagged for a closer look

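The spleen and lymph node changes of 3 genes differed by the edgeR interaction test. Itga4 had an interaction of 1.76 ± 0.17 SE on the log2 scale (adjusted p = 0.000109) and was called under all 20 alternatives. Cdca7l had 1.73 ± 0.28 SE (adjusted p = 0.038) and was called under 6 of the 20, with adjusted p up to 0.183. P2rx7 had 1.83 ± 0.29 SE (adjusted p = 0.038) and was called under 6 of the 20, with adjusted p up to 0.266. All 3 were higher in Id3- eTR than in Id3+ cTR of every mouse in spleen and lower in every mouse in lymph node.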

How the results depend on the processing

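The spleen comparison called 1526 genes (892 higher, 634 lower). It called 1504 with RLE size factors, 1371 with no filter on low counts, 1889 with DESeq2, 1252 with limma-voom and 1417 with only the groups compared. With mouse as a replicate block it called 1459, 861 higher and 598 lower, and with the block and only the groups compared 398 were lower. Without the 3 libraries 730 were called, 453 higher and 277 lower. Leaving out 1 library gave 1072 to 1337 calls, 646 to 753 higher and 416 (without Id3- eTR of mouse 87) to 596 lower. Lymph node gave 1610 calls, 1543 with the block and 1118 to 1266 without 1 library. The interaction gave 3 calls, 3 with the block, 47 with DESeq2, 1 with limma-voom, 1 with only the groups compared, 1 with these and the block, and 1 to 5 without 1 library; 856 genes had an unadjusted p under 0.05. Beside the genes given in the text with their blocked p, the block changed no call of a gene named there. Of 122 named genes, 116 were called and 78 kept direction and call under every alternative. Foxp3 (0.038) and Tcf4 (0.73) changed sign in log2 change without the 3 libraries, and neither was called. The cause was not tested. With 3 mice per group and a median SE of 0.317, changes of low genes are imprecise.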

Other observations

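Ttn, which encodes the giant muscle protein titin, was among the most counted genes of Id3- eTR. It had 1313, 1330 and 1296 CPM in Id3- eTR, 670, 797 and 644 CPM in Id3+ eTR and 69.6, 65.5 and 58.6 CPM in Id3+ cTR (log2 change 4.34 ± 0.22 SE, edgeR adjusted p = 1.33e-09). By CPM it ranked 3 in Id3- eTR and 4709 in Id3+ cTR. Its merged exons span 116825 bases, and per kilobase its level was 11.2 CPM in Id3- eTR, 6.02 in Id3+ eTR and 0.553 in Id3+ cTR. Neb, which encodes the muscle protein nebulin, had 695, 598 and 757 CPM in Id3- eTR, 58.6, 87.1 and 89.4 CPM in Id3+ eTR and 148, 125 and 171 CPM in Id3+ cTR (log2 change 2.21 ± 0.27 SE, adjusted p = 2.23e-05). Id3+ eTR were thus the lowest population for Neb. These and the following genes were chosen after their values were seen.

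Icos, a costimulatory receptor, had 788, 871 and 778 CPM in Id3- eTR, 264, 341 and 349 CPM in Id3+ eTR and 187, 181 and 212 CPM in Id3+ cTR (log2 change 2.08 ± 0.11 SE, adjusted p = 1.82e-09). Cd83, an activation marker, had 411, 309 and 384 CPM in Id3- eTR, 372, 264 and 337 CPM in Id3+ eTR and 102, 103 and 91.3 CPM in Id3+ cTR, so both effector populations were high. Ecm1, which encodes an extracellular matrix protein, was lower, with 95.7, 66.9 and 101 CPM in Id3- eTR, 296, 243 and 232 CPM in Id3+ eTR and 351, 400 and 458 CPM in Id3+ cTR. Of 44 tested variable segments of T cell receptor genes, 4 were higher (Trav13-1, Trav19, Trav6n-6 and Trbv30) and 4 lower (Trdv2-2, Trbv31, Trbv13-1 and Trbv5). Over all genes tested, 7.17% were higher and 5.09% lower. The calls of Trav19 and Trav6n-6 were close to the threshold (edgeR adjusted p = 0.04999 and 0.0429). The call of Trav6n-6 was lost with mouse as a block (adjusted p = 0.0702).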
